A study of Mus musculus with 4 samples.

Results

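The genes of 4 dopamine receptors and of their intracellular target DARPP-32 were followed across the cells of the mouse ventromedial prefrontal cortex (vmPFC): Drd1, Drd2, Drd4, Drd5 and Ppp1r1b, which encodes DARPP-32. They are 5 of the 31053 genes in the count matrices, and were taken as a named set because of their function. Earlier results of these data were known when they were chosen. The tissue came from male C57BL/6 mice that were injected at 8 weeks of age, in 5 targets of the vmPFC (AI, DMS, MD, BLA and LH), with retrograde adeno-associated viruses carrying EGFP and a short barcode. Every library, the unsorted ones included, therefore came from injected mice, and there was no uninjected group. The unsorted group held 3 libraries, titled mouse 1, 2 and 3 and called unsorted replicates 1, 2 and 3 here, and the sorted group held 1 library of EGFP-sorted cells pooled from 3 other mice. The methods of the study give 1 mouse to each unsorted library, with the 3 lanes on 1 chip. The authors' metadata name 9368 excitatory neurons in 7 subtypes, called by layer and a marker gene. Inhibitory cells were taken as cells absent from the metadata with 4 or more UMIs of Gad1 and Gad2 together and at most 3 of Slc17a7, which gave 1278 cells without sorting and 5 with it.

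Dopamine acts through G protein-coupled receptors of a pair of families. The D1-like receptors, encoded by Drd1 and Drd5, couple to stimulatory G proteins and raise cAMP, and the D2-like receptors, encoded by Drd2, Drd3 and Drd4, couple to inhibitory G proteins and lower it. DARPP-32 is a target of protein kinase A: once phosphorylated by it, DARPP-32 inhibits protein phosphatase 1, so that a dopamine signal is prolonged inside the cell. In the cortex, D1-like and D2-like receptors are known from both pyramidal neurons and interneurons, and DARPP-32 from deep-layer pyramidal neurons, while striatal projection neurons are the classical site of Drd1, Drd2 and Ppp1r1b.

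In the GRCm38 build, with GENCODE vM21 annotation, Drd1 (ENSMUSG00000021478) lies on the minus strand of chromosome 13 at 54051183-54055705. Drd5 (ENSMUSG00000039358) lies on the plus strand of chromosome 5 at 38319367-38322518. Drd2 (ENSMUSG00000032259) and Drd4 (ENSMUSG00000025496) lie on the plus strands of chromosome 9 at 49340627-49408177 and of chromosome 7 at 141292006-141296464. Ppp1r1b (ENSMUSG00000061718) lies on the plus strand of chromosome 11 at 98348404-98357796. All 5 are protein-coding. Drd5 overlaps the antisense gene Gm26560 and Ppp1r1b overlaps the noncoding 1700003D09Rik, both on the opposite strand. How the counting treated strand is not given in the sources used here, so reads of these pairs are uncertain to that extent.

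A UMI is a tag that marks 1 captured transcript molecule, and a level is given as CPM, the UMIs of a gene in every 1000000 UMIs of the summed cells. Values are means ± SD over the 3 unsorted libraries unless named otherwise. Per excitatory neuron the median depth was 21362 to 23213 UMIs without sorting and 31670 with it, and per inhibitory cell 13277 to 14101 without sorting. Shares of cells with a UMI depend on depth. They are therefore also given after each cell was thinned to 10000 UMIs, which kept 7544 of 7765 unsorted excitatory neurons and 925 of 1278 inhibitory cells. Markers that the inhibitory gate did not use differed between the classes: Neurod6 was at 254 ± 5.48 CPM in excitatory neurons and 1.83 ± 0.533 in inhibitory cells, and Slc32a1, the vesicular GABA transporter gene, at 0.391 ± 0.126 and 353 ± 14.8. Camk2a was at 358 ± 17.6 and 134 ± 6.45. Of 6 marker genes of striatal projection neurons, Isl1 and Six3 were at 0 UMIs in every excitatory subtype, and the summed level of the 6 was 149 to 150 CPM in excitatory neurons and 220 to 248 in inhibitory cells, where Isl1 had 15 UMIs.

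Drd1 was highest in the layer 6 subtypes. Its level in L6-Npy neurons was 63.6, 65.7 and 68.6 CPM in unsorted replicates 1, 2 and 3. In L6-Syt6 neurons it was 42.3, 42.2 and 41.5 CPM. The ranges did not overlap, and L6-Npy was higher in 3 of 3 libraries, by 1.57 times in the means. L5-Htr2c (26.8 ± 1.53 CPM) and L5-S100b (26.3 ± 2.15) followed, and did not differ from each other beyond their spread. Inhibitory cells stood between these and the upper layers at 12.2 ± 2.02 CPM. The lowest levels were in L2/3-Calb1 (6.11 ± 2.38), L2/3-Rorb (2.11 ± 0.551) and L5-Bcl6 (0.899 ± 0.473), the last from 7 UMIs in 315 neurons. The layer 5 subtypes were thus far apart, with L5-Bcl6 below both L2/3 subtypes, and L6-Npy was 46.4 to 154 times higher than L5-Bcl6 within a library. At least 1 UMI of Drd1 was seen in 70.8% ± 2.75 of L6-Npy neurons (45.8% ± 0.845 after thinning) and 55.0% ± 0.406 of L6-Syt6 neurons (31.4% ± 0.638 after thinning). Most carried few copies: of 837 L6-Npy neurons, 245 had no UMI, 281 had 1, 170 had 2 and 141 had 3 or more, with a maximum of 7.

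Drd5, the other D1-like receptor gene, shared only part of this order. It was at 11.3, 11.1 and 10.6 CPM in L6-Syt6 neurons and at 9.90, 9.77 and 11.1 CPM in L5-Htr2c neurons, which overlapped. L5-S100b followed at 5.66 ± 1.15 CPM, beyond the spread of both. In L6-Npy, where Drd1 was highest, Drd5 was at 1.03, 1.66 and 0.514 CPM from 18 UMIs in all, 6.69 to 20.6 times lower than in L6-Syt6. It did not differ there beyond the spread from L2/3-Rorb (1.55 ± 1.39), inhibitory cells (0.905 ± 0.173) or L5-Bcl6 (0.830 ± 0.910). In L2/3-Calb1 it was seen as 1 UMI in 317 neurons. Unsorted replicate 1 gave 14 of the 20 Drd5 UMIs of L2/3-Rorb, and its 3.15 CPM stood above 0.824 and 0.670 in the other libraries. The share of L6-Syt6 neurons with a Drd5 UMI was 20.4% ± 0.290 (9.44% ± 0.886 after thinning), and 36 of 4319 had 3 or more UMIs.

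Drd2 was found in a small part of the neurons, and among the excitatory subtypes it was highest in L6-Npy. There it was at 11.9, 14.6 and 16.4 CPM, and 21.7% ± 2.89 of the neurons had a UMI (13.9% ± 1.26 after thinning). Inhibitory cells (5.60 ± 0.355 CPM) and L5-Bcl6 neurons (5.01 ± 0.717) came next and did not differ beyond their spread. L5-S100b neurons were at 2.53, 2.40 and 2.79 CPM, below L5-Bcl6 in all 3 libraries. In L6-Syt6, the largest subtype, only 9 of 4319 neurons had a Drd2 UMI, and the level of 0.119 ± 0.0573 CPM was 67.6 to 239 times lower than in L6-Npy. No UMI was found in 564 L2/3-Rorb neurons or in 317 L5-Htr2c neurons of the unsorted libraries, which allows levels of up to 0.239 and 0.640 CPM (3 counts over the 3 libraries). Drd2 in L6-Npy was thus at least 59.9-fold higher than in L2/3-Rorb and at least 22.3-fold higher than in L5-Htr2c. These bounds and the intervals below cover counting error only. L5-Bcl6 therefore had the opposite order of the receptors from L6-Syt6: it was lowest of the 7 subtypes in Drd1 and the second in Drd2.

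Drd4, the other D2-like gene of the set, was at the limit of detection in excitatory neurons, with 15 UMIs in 7765 neurons, and a UMI in 0.192% ± 0.0625 of them. Of these UMIs, 5 were in L2/3-Calb1 and 6 in L2/3-Rorb neurons (0.829 ± 0.294 and 0.516 ± 0.505 CPM), and 4 in all other subtypes together. No neighbours in its order of levels differed beyond their spread. Drd4 did not pass the filter on low counts in the subtype fit or in the barcode fits described below. The subtype fit thus tested 4 of the 5 members, and the barcode fits 1 to 4 of them, depending on the subtype. Drd3, the remaining receptor gene, was at 0 UMIs in all subtypes and in inhibitory cells.

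Ppp1r1b was concentrated in L6-Syt6 neurons. Its level there was 99.5, 96.3 and 101 CPM in unsorted replicates 1, 2 and 3. The next subtype, L5-Bcl6, was at 26.1, 16.2 and 29.8 CPM, 3.41 to 5.96 times lower. L2/3-Calb1 (19.3 ± 1.59), L5-Htr2c (17.2 ± 7.26) and L2/3-Rorb (16.2 ± 0.619) followed, and no neighbours from L5-Bcl6 to L2/3-Rorb differed beyond their spread. L6-Npy (9.97 ± 2.94) was below L2/3-Rorb beyond the spread and was not so separated from L5-S100b (9.52 ± 1.60). Inhibitory cells were lowest at 5.13 ± 1.17. The layer 6 subtypes were thus far apart: L6-Syt6 was 7.56 to 14.4 times higher than L6-Npy in Ppp1r1b, while L6-Npy was the higher of both in Drd1 and Drd2. In L6-Syt6, 77.5% ± 1.09 of the neurons had a UMI of Ppp1r1b (55.8% ± 1.53 after thinning). Of its 4319 neurons, 1631 had 3 or more UMIs and 637 had 5 or more, and the median was 2. Elsewhere the neurons with Ppp1r1b mostly had 1 UMI, as in L5-S100b, where 171 of the 208 neurons with any had exactly 1.

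**Figure D1:**
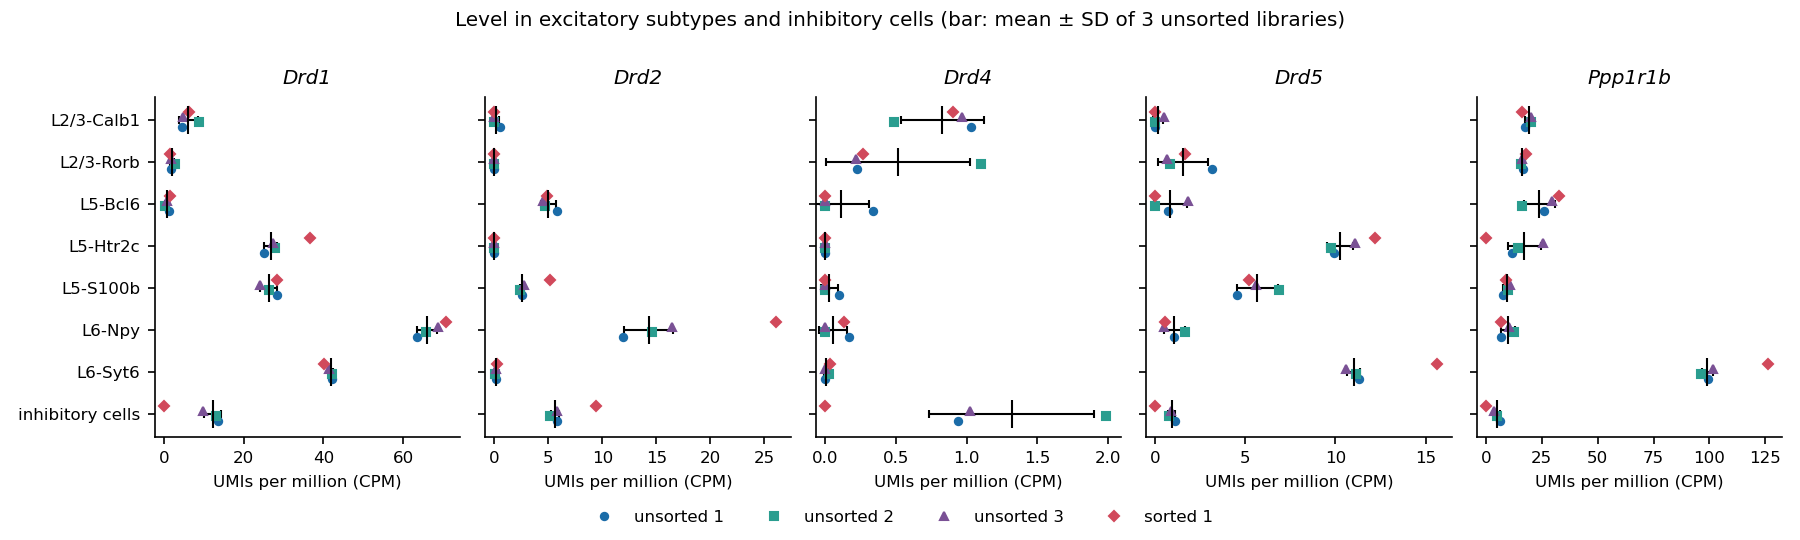
Level of each gene in CPM (x axis, a separate linear scale per gene) in the 7 excitatory subtypes and in inhibitory cells; each symbol is 1 library, the vertical tick is the mean of the 3 unsorted libraries and the horizontal bar its SD. Ppp1r1b stands highest in L6-Syt6, where the unsorted libraries lie between 96.3 and 101 CPM, and Drd1 and Drd2 stand highest in L6-Npy; the sorted library held only 4 L5-Htr2c neurons and 5 inhibitory cells.

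**Figure D2:**
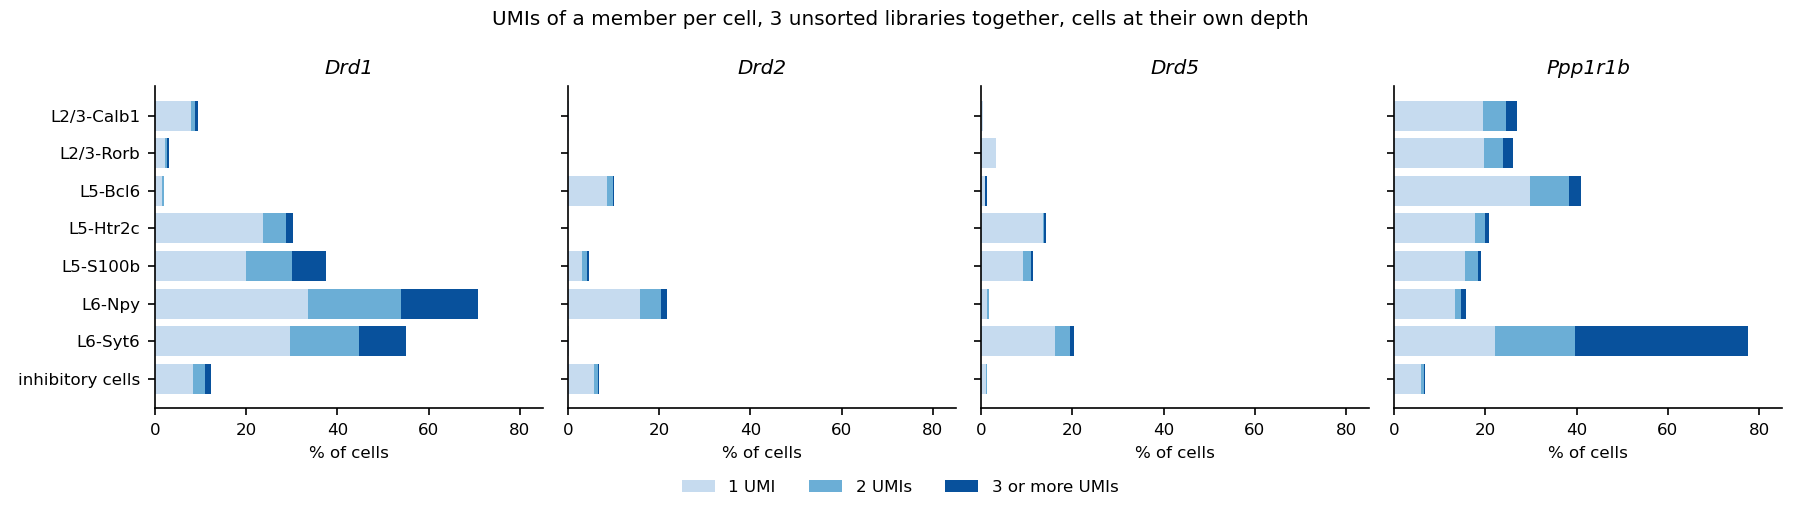
Percent of cells (x axis) with 1, 2, or 3 or more UMIs of a gene, for the 7 excitatory subtypes and inhibitory cells of the 3 unsorted libraries together, at each cell's own depth. The darkest part, 3 or more UMIs, reaches 37.8% of L6-Syt6 neurons for Ppp1r1b and 16.8% of L6-Npy neurons for Drd1, and stays under 2% in every group for Drd2 and Drd5.

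To set these differences beside the spread over libraries, counts summed per library and subtype were fitted with edgeR's quasi-likelihood model, with the library as a block, and each subtype was set against the mean of the other 6 on the log2 scale. Calls needed a p under 0.05 after Benjamini-Hochberg adjustment and a log2 fold change of 0.5 or more in either direction. The subtypes had been clustered on the expression of these same cells, so the fits are given as a description of size and error, without p-values. Of the 4 members tested, 3 were called in L6-Syt6, where 25.6% of the 12850 genes tested were called. In L6-Npy 3 were called beside 17.8% of all genes, in L5-S100b 4 beside 17% and in L5-Htr2c 2 beside 28.2%. In L5-Bcl6 2 were called beside 18.8%, in L2/3-Calb1 2 beside 21.6% and in L2/3-Rorb 1 beside 18.5%. Each SE of an edgeR fit here and below is the absolute log2 fold change divided by the square root of its F statistic. In L6-Syt6 the log2 fold changes were 2.90 ± 0.15 (SE) for Drd5, 2.79 ± 0.05 for Ppp1r1b and 2.29 ± 0.07 for Drd1. In L6-Npy they were 6.12 ± 0.27 for Drd2, 2.99 ± 0.08 for Drd1 and -1.15 ± 0.13 for Ppp1r1b. L5-Bcl6 had 4.39 ± 0.50 for Drd2 and -4.15 ± 0.32 for Drd1.

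Markers of other cell types moved with some subtypes. In L6-Npy, 2 of 4 microglial and 1 of 2 endothelial markers tested were called higher, with summed levels of 11.8 to 20.8 and 18.8 to 21.6 CPM, beside 11.8 to 12.7 and 7.96 to 8.40 CPM in L6-Syt6. In L2/3-Rorb 3 of 3 inhibitory markers tested were higher (11.7 to 43.1 CPM summed), in L5-Htr2c 2 of 3 (7.67 to 34.6), and in L2/3-Calb1 2 of 2 astrocyte markers (16.2 to 27.8). The single oligodendrocyte marker tested was higher in L5-Bcl6 and L5-S100b (93.2 to 112 and 90.2 to 93.3 CPM summed, beside 27.6 to 29.0 in L6-Syt6). Their part in the results was not tested.

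The size and, in places, the direction of these contrasts depended on how the other subtypes were averaged. When the other 6 subtypes were summed instead, which lets L6-Syt6 with 4319 of the 7765 neurons dominate, Drd1 went from 1.37 to -0.53 in L5-Htr2c and from 1.45 to -0.52 in L5-S100b. Drd5 in L5-S100b went from 1.71 to -0.54, and Ppp1r1b in L5-Bcl6 from 0.35, under the limit, to -1.41. L5-Htr2c and L5-S100b were thus intermediate in Drd1, above the low subtypes and below both layer 6 ones. The Drd2 folds rest in part on subtypes at 0 UMIs, where the fitted value depends on a prior count, so the bounds given above describe it better. The SE of these folds does not cover that dependence. Over the main and alternative settings, Drd2 ran from 4.21 to 6.89 in L6-Npy and from 1.38 to 4.85 in L5-Bcl6. With the other 6 subtypes summed, Drd2 stood at 0.35 in L5-S100b, which did not pass the test.

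Set against inhibitory cells, the 5 members went in both directions. Drd1, Drd5 and Ppp1r1b were higher in excitatory neurons, and Drd2 and Drd4 were lower. Drd1 was at 35.5, 36.1 and 35.3 CPM in excitatory neurons and at 13.6, 13.1 and 9.91 CPM in inhibitory cells. This was 1.64 ± 0.09 on the log2 scale (SE, with an edgeR adjusted p of 3.67e-20). Ppp1r1b was at 61.1, 61.5 and 64.1 against 6.28, 5.19 and 3.93 CPM, a log2 fold change of 3.69 ± 0.10 (edgeR adjusted p = 1.79e-30). Drd5 was at 7.72, 7.98 and 7.36 against 1.10, 0.764 and 0.855 CPM, with 3.19 ± 0.23 on the log2 scale (edgeR adjusted p = 1.74e-15). None of these ranges overlapped. Drd2 was at 1.94, 2.00 and 2.32 CPM in excitatory neurons and 5.81, 5.19 and 5.81 in inhibitory cells (log2 fold change -1.32 ± 0.20, edgeR adjusted p = 1.75e-07). Drd4 was at 0.0986, 0.106 and 0.0516 against 0.941, 1.99 and 1.03 CPM (log2 fold change -3.77 ± 0.53, edgeR adjusted p = 6.07e-08), from 15 and 25 UMIs in all. All 5 members were called, where 40.4% of the 15266 genes tested were, and every one kept its direction and its call under each alternative that was run and gave it a value.

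These values describe the mixture that was captured, in which L6-Syt6 neurons were the majority. Against a single subtype the order can differ: Drd2 in L6-Npy was 2.05 to 2.83 times higher than in inhibitory cells, although all excitatory neurons together were lower. The inhibitory cells are a mixture too: the Sst cells gated below had Drd2 at 9.06 to 12.2 CPM, which overlapped the 11.9 to 16.4 of L6-Npy. After thinning to 10000 UMIs, a Drd1 UMI was seen in 26.4% of excitatory neurons and 10.2% of inhibitory cells, and a Drd2 UMI in 2.03% and 5.29%. The thinned shares for Drd4 were 0.118% and 1.38%, for Drd5 6.51% and 0.743%, and for Ppp1r1b 36.2% and 4.61%. The inhibitory gate was also less clean than the authors' neurons. Of 4 markers each, 4 of microglia, 3 of oligodendrocytes, 4 of oligodendrocyte precursors, 4 of endothelial cells and 2 of astrocytes were called higher in the inhibitory cells. The summed level of the microglial markers was 45.2 to 141 CPM there and 11.6 to 14.0 in excitatory neurons, and that of the astrocyte markers 7.79 to 14.3 and 3.16 to 4.46. Their part in the result was not tested.

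The inhibitory cells were divided by gates on marker UMIs. Drd2 was at 11.0, 9.06 and 12.2 CPM in 383 Sst cells, the somatostatin interneurons, and at 0 UMIs in 40 Pvalb cells, which allows up to 3.62 CPM. It was at 1.36, 1.08 and 0.597 CPM in 484 Vip cells. The broader gates gave 9.34 ± 1.95 CPM in Lhx6 cells, which derive from the medial ganglionic eminence, and 2.51 ± 0.852 in Adarb2 cells, which derive from the caudal one. Drd4 had the reverse order, with 20 of 484 Vip cells positive (4.06 ± 2.10 CPM), none of 383 Sst cells, and 2.22 ± 0.942 CPM in Adarb2 cells. The Drd4 level in Vip cells was at least 9.79-fold higher than in Sst cells. The 40 Pvalb cells held 2 UMIs of Drd4, 1 in each of unsorted replicates 1 and 2. Ppp1r1b was at 10.9, 8.75 and 6.37 CPM in Adarb2 cells and at 1.12, 0.762 and 0.818 CPM in Lhx6 cells, with no overlap. Drd1 did not separate these broad gates, with 13.5 ± 2.70 CPM in Lhx6 cells and 11.6 ± 2.62 in Adarb2 cells. Drd5 was at 1.31 ± 0.663 CPM in Lhx6 cells and 0.295 ± 0.510 in Adarb2 cells, from 10 and 3 UMIs, and these did not differ beyond their spread. Among the few Pvalb cells Drd1 was at 42.3, 19.1 and 18.5 CPM, from 15, 6 and 3 UMIs, so that the highest value rests on unsorted replicate 1. Drd5 had 0 UMIs in them. No test was run between these gates.

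Outside the neurons most members were near 0. In gated microglia, endothelial cells, oligodendrocytes and oligodendrocyte precursors, Drd1 was at 0.314 to 0.722 CPM on average, or 0.881% to 2.03% of its level in excitatory neurons. Of the excitatory markers that the gates did not use, Neurod6 was at 1.23% to 1.74% of its excitatory level in the same 4 gates and Camk2a at 6.48% to 11.2%. The Drd1 share was below that of Camk2a in all 4 gates and above that of Neurod6 in all but the oligodendrocytes, by less than 1 percentage point, and is not read as expression. In inhibitory cells Drd1 was at 34.3% of its excitatory level, Neurod6 at 0.721% and Camk2a at 37.5%. Ppp1r1b in astrocytes was at 33.0, 20.7 and 25.6 CPM, or 42.5% of its excitatory level, beside 1.72% for Neurod6 and 7.57% for Camk2a. Only 38 of 430 astrocytes had a UMI, and at the median depth of 3405.5 UMIs this was 8.82% ± 2.30 of the cells. Ppp1r1b in oligodendrocytes was at 4.94 ± 0.445 CPM, or 7.94%, beside 6.48% for Camk2a. Drd5 in oligodendrocyte precursors was at 3.09, 4.39 and 3.04 CPM, or 45.6% of the excitatory level, beside 6.66% for Camk2a. It came from 23 of 1561 cells. After thinning to 2000 UMIs, a Ppp1r1b UMI was seen in 4.99% ± 3.06 of astrocytes and in 10.6% ± 0.320 of excitatory neurons, and a Drd5 UMI in 0.513% ± 0.383 of precursors and 1.40% ± 0.383 of excitatory neurons.

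**Figure D3:**
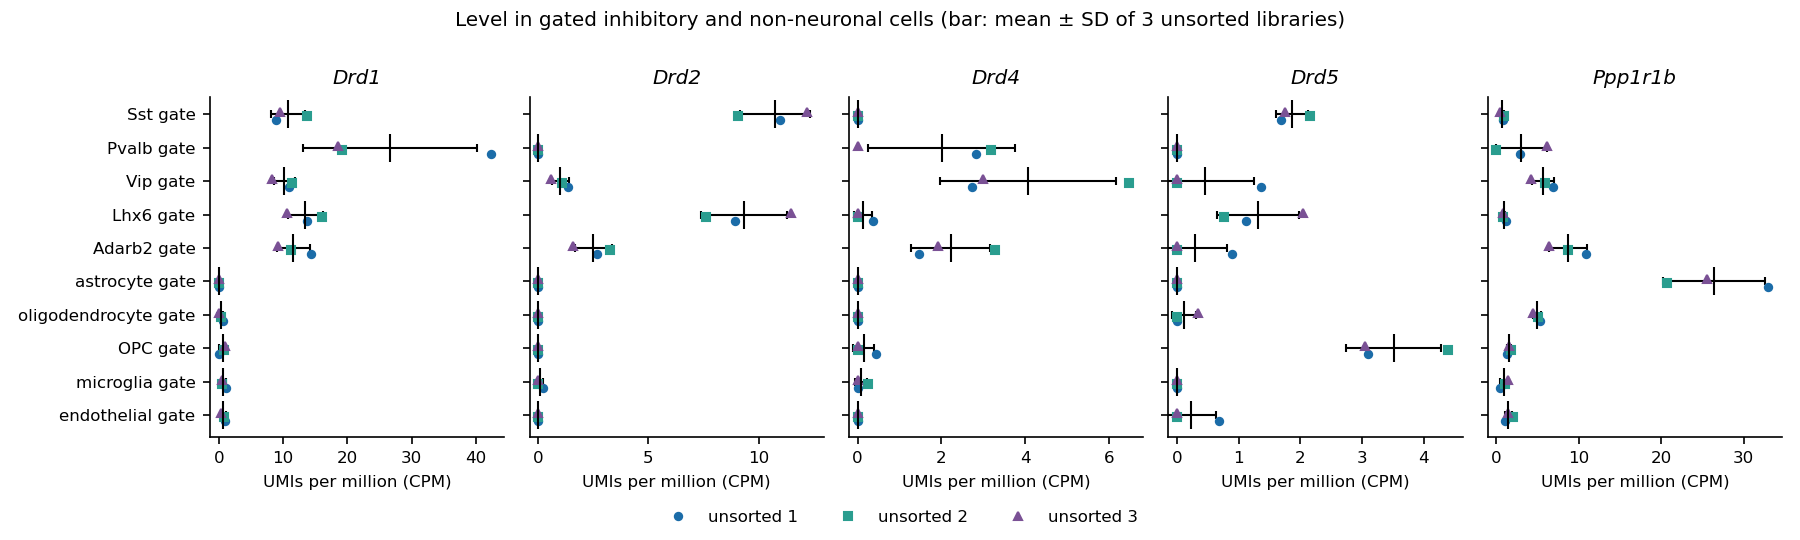
Level of each gene in CPM (x axis, a separate linear scale per gene) in gated inhibitory and non-neuronal cells of the 3 unsorted libraries; each symbol is 1 library, the vertical tick is the mean and the horizontal bar the SD. Drd2 stands in the Sst and Lhx6 gates, Drd4 in the Vip, Adarb2 and Pvalb gates and Ppp1r1b in the astrocyte gate (20.7 to 33.0 CPM); the Pvalb gate holds 40 cells and 2 UMIs of Drd4.

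Whether the members occur in the same single neurons was described in cells thinned to 10000 UMIs, beside the number that the product of both shares gives within each library. In L6-Syt6, 790 of 4230 neurons had both Drd1 and Ppp1r1b, where the product gave 739, and 59.5% of the neurons with Drd1 also had Ppp1r1b. Drd1 and Drd5 were together in 159 L6-Syt6 neurons where the product gave 126, a ratio of 1.27 that lay between 1.21 and 1.35 in the libraries. In L6-Npy, 58 of 829 neurons had both Drd1 and Drd2, where the product gave 52.7. In L5-S100b the same pair was together in 14 of 1015 neurons where the product gave 4.07, a ratio of 3.44 that was 3.37 to 3.67 in the libraries, and 14 of the 20 neurons with Drd2 had Drd1. Drd1 and Drd5 went the other way in L5-S100b, with 7 neurons where the product gave 9.09. Drd2 and Ppp1r1b were in the same L5-S100b neuron 0 times where the product gave 1.55, and 6 times in L5-Bcl6 where it gave 2.61. These are counts without a test, and the larger ones can carry differences between neurons of 1 subtype that thinning does not remove, which were not tested.

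The viral barcode marks neurons with an axon in one of the injected targets, and the matrices hold 1 feature for it, which was taken to cover all 5 barcodes, so that targets were not separated. Neurons with 5 or more of its UMIs (barcode-high) were set against neurons with none (barcode-zero) within a subtype, over all 4 libraries with the library as a block. A barcode-zero neuron can be one that was missed, and in the sorted library such a neuron had still been sorted as EGFP-positive. In L5-S100b neurons 3 of the 4 members tested were called, beside 2.7% of the 11477 genes tested. Drd1 was lower in barcode-high neurons, at 25.7, 25.1, 19.8 and 22.3 CPM in unsorted replicates 1, 2 and 3 and the sorted library, against 41.1, 43.2, 33.8 and 51.4 CPM in barcode-zero neurons. The ranges did not overlap, and Drd1 was lower in 4 of 4 libraries (log2 fold change -0.81 ± 0.14, edgeR adjusted p = 0.000197). Drd2 was lower as well, at 1.70, 1.05, 1.98 and 3.17 CPM against 5.76, 6.48, 5.80 and 8.34. This was -1.72 ± 0.39 (edgeR adjusted p = 0.00465), from 56 and 25 UMIs. Drd5 went the other way, at 5.09, 7.92, 6.52 and 6.75 CPM in barcode-high and 2.47, 4.32, 0.967 and 1.39 in barcode-zero neurons (log2 fold change 1.50 ± 0.42, edgeR adjusted p = 0.0275). The barcode-zero side of Drd5 rests on 9 UMIs. Ppp1r1b did not pass the test, with 9.93 ± 1.47 CPM in barcode-high and 8.48 ± 1.49 in barcode-zero neurons (SD over 4 libraries; log2 fold change 0.24 ± 0.26, edgeR adjusted p = 0.705).

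The D1-like genes thus moved in opposite directions with the barcode in L5-S100b. The Drd1 call held under every alternative run, with adjusted p between 9.45e-06 and 0.0309 (edgeR or DESeq2). The Drd5 call was lost whenever 1 of the 4 libraries was left out, with an edgeR adjusted p of 0.0687, 0.0649 or 0.145 for unsorted replicate 1, 2 or 3 and 0.086 for the sorted library. It was also lost with DESeq2 (adjusted p = 0.292), without the block (edgeR adjusted p = 0.16) and with barcode-positive neurons taken at 1 or more UMIs (edgeR adjusted p = 0.07). The Drd2 call was lost without unsorted replicate 2 (edgeR adjusted p = 0.0595) and without the block (edgeR adjusted p = 0.0961), and DESeq2 gave it no adjusted p. Depth and subtype markers moved with the barcode too. Median depth was 25553.5 to 34389 UMIs in barcode-high and 19306.5 to 28185 in barcode-zero L5-S100b neurons. Of the 10 subtype markers of the study, S100b was higher in the barcode-high neurons (log2 fold change 1.16 ± 0.18), and Cux2 (-2.19 ± 0.33), Bcl6 (-1.24 ± 0.33), Npy (-1.23 ± 0.37) and Calb1 (-1.01 ± 0.28) were lower, the other 5 not being called. With both sides thinned to 10000 UMIs, Drd1 kept its call at -0.80 ± 0.23 (edgeR adjusted p = 0.0304), and Drd2 and Drd5 no longer passed the filter on low counts. The part of the marker differences in the result was not tested.

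In the other subtypes no member was called by edgeR or by DESeq2. L6-Syt6 had 3 members tested, beside 1.67% of 13030 genes called. Ppp1r1b was higher in its barcode-high neurons, at 111, 111, 120 and 139 CPM against 91.7, 89.0, 91.8 and 96.6, without overlap. Its edgeR adjusted p of 0.00633 passed, and its log2 fold change of 0.41 ± 0.06 stayed under the limit of 0.5. Without unsorted replicate 2 or 3 the edgeR adjusted p was 0.0837 or 0.0596. Median depth was 24582 to 38604 UMIs in barcode-high and 21684 to 30096.5 in barcode-zero L6-Syt6 neurons. Of 9 subtype markers tested there, 1 was called higher and 1 lower. The part of these marker differences in the Ppp1r1b result was not tested. Drd1 (0.12 ± 0.05, edgeR adjusted p = 0.164, unadjusted 0.0356) and Drd5 (0.14 ± 0.10, edgeR adjusted p = 0.433) did not pass in L6-Syt6. In L6-Npy, beside 0.801% of 10365 genes called, Drd1 had a log2 fold change of -0.00046 ± 0.10 and Drd2 of -0.05 ± 0.20. Ppp1r1b had 0.77 ± 0.30 there (edgeR adjusted p = 0.269, unadjusted 0.0139), with higher values in 4 of 4 libraries. In L2/3-Rorb, beside 0.139% of 10038 genes called, Ppp1r1b was the one member tested, at -0.30 ± 0.26 (edgeR adjusted p = 0.889). The differences between the subtypes were tested in a fit added after these values were seen. The effect of the barcode on Drd1 was lower in L5-S100b than in L6-Syt6 by -0.93 ± 0.14 on the log2 scale (edgeR adjusted p = 0.000189), where 3.01% of 12834 genes were called. For Drd5 the same difference was 1.37 ± 0.45 and for Drd2 -2.84 ± 0.91, and neither passed (edgeR adjusted p = 0.0898 and 0.0811). Against L6-Npy, where 1.15% of 10905 genes were called, the differences were -0.81 ± 0.17 for Drd1 (edgeR adjusted p = 0.00323) and -1.65 ± 0.42 for Drd2 (edgeR adjusted p = 0.0303). That for Drd5 was 0.05 ± 3.04 and did not pass, and Ppp1r1b passed in neither fit.

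**Figure D4:**
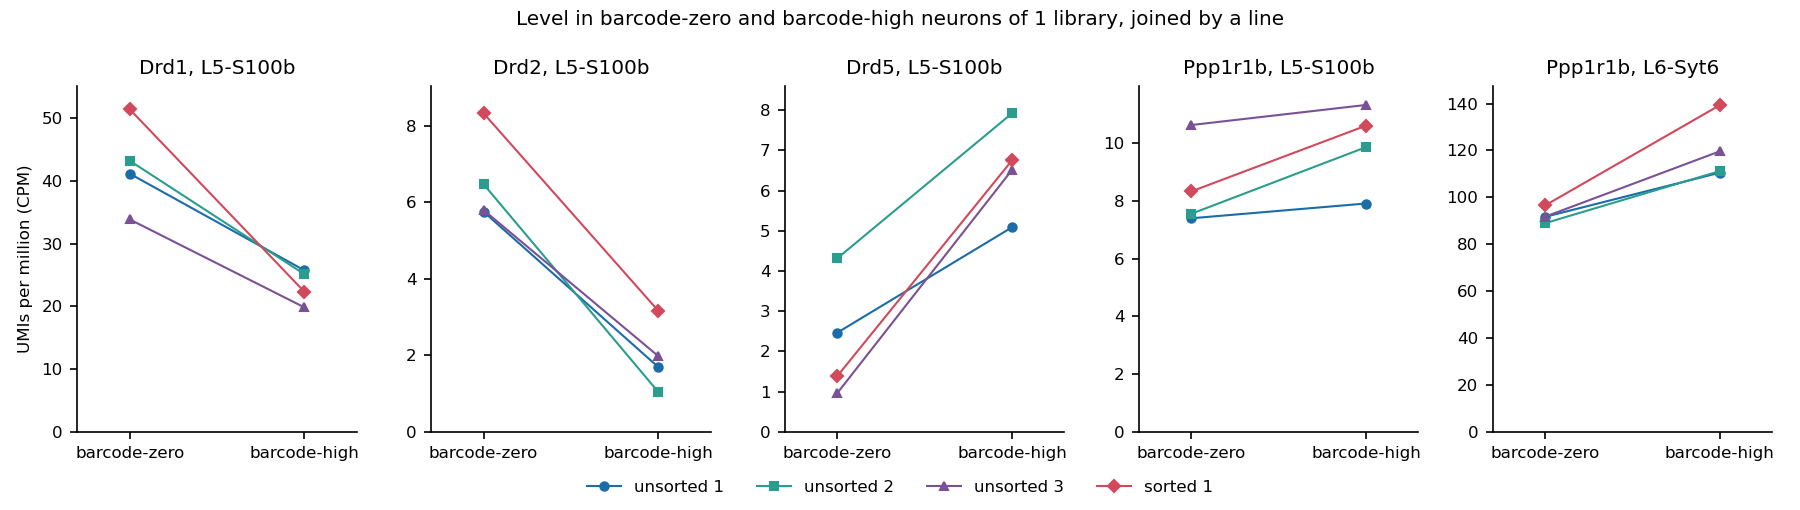
Level in CPM (y axis from 0, a separate linear scale per panel) in barcode-zero and barcode-high neurons, with a line joining the pair of values from 1 library; 4 panels show L5-S100b neurons and the last shows Ppp1r1b in L6-Syt6. Drd1 and Drd2 fall and Drd5 climbs in all 4 libraries of L5-S100b, where barcode-zero Drd5 rests on 9 UMIs in all and its call is lost without any 1 library.

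The sorted library, which has no replicate and so no test, placed most members within or near the range of the unsorted ones. Of the values for single subtypes, 4 lay outside that range by more than their counting interval. Drd2 in L6-Npy was at 26.1 CPM (95% exact Poisson interval 22.5 to 30.1), above the 11.9 to 16.4 of the unsorted libraries, and Drd2 in L5-S100b at 5.18 CPM (3.89 to 6.76), above 2.40 to 2.79. Drd5 in L6-Syt6 was at 15.6 CPM (14.2 to 17.2) and Ppp1r1b in L6-Syt6 at 126 CPM (122 to 130). After thinning, 21.7% of 277 sorted L6-Npy neurons had a Drd2 UMI, against 13.1% to 15.3% in the unsorted libraries. In all excitatory neurons together, Drd2 (5.08 CPM, 4.48 to 5.73), Drd5 (9.44, 8.62 to 10.3) and Ppp1r1b (71.6, 69.3 to 74.0) also lay above the unsorted range. The higher Drd2 level was present in both barcode-high (26.0 CPM) and barcode-zero (24.7 CPM) L6-Npy neurons of the sorted library.

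Of a list of 52 other genes of dopamine signaling (G proteins, adenylyl cyclases, kinase and phosphatase subunits, regulators and dopamine-handling genes), 46 passed the filter of the subtype fit. Their median log2 fold change lay between -0.13 and 0.08 in the 7 subtypes, beside -0.004 to 0.02 for all genes. The share of the list called was 30.4% in L6-Syt6, 23.9% in L6-Npy, 21.7% in L5-S100b, 37.0% in L5-Htr2c, 23.9% in L5-Bcl6, 34.8% in L2/3-Calb1 and 23.9% in L2/3-Rorb, beside the shares of all genes of 25.6%, 17.8%, 17%, 28.2%, 18.8%, 21.6% and 18.5%. In L6-Syt6 8 were called higher and 6 lower. Rgs9, which shortens G protein signals (1.51 ± 0.06), the kinase A subunit gene Prkar2b (0.97 ± 0.03) and the cyclase gene Adcy1 (0.83 ± 0.02) led the higher ones, and Rgs2 (-1.07 ± 0.04) and Adcy8 (-0.91 ± 0.08) were among the lower ones. In L6-Npy 6 were higher, led by Rgs2 (1.57 ± 0.04), Rgs9 (1.14 ± 0.09) and Adcy9 (0.74 ± 0.07), and 5 lower, among them Adcy2 (-2.10 ± 0.07) and Rgs4 (-1.32 ± 0.05). In L5-S100b 7 were higher, among them Maob (1.22 ± 0.08) and Adcy1 (0.71 ± 0.02), and 3 lower: Rgs9 (-1.54 ± 0.12), Caly (-0.74 ± 0.03) and Gnal (-0.50 ± 0.06). In L5-Htr2c 4 were higher, led by Adcy2 (2.69 ± 0.06), Adcy8 (1.31 ± 0.15) and Rgs9 (0.61 ± 0.17), and 13 lower, led by Adcy5 (-1.80 ± 0.17), Arpp19 (-1.63 ± 0.04) and Adcy1 (-1.56 ± 0.06).

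L5-Bcl6 had 4 higher, led by Rgs9 (0.93 ± 0.13), Adcy5 (0.88 ± 0.09) and Prkar2a (0.55 ± 0.06), and 7 lower, among them Maob (-2.24 ± 0.21) and Gnal (-1.39 ± 0.10). In L2/3-Calb1 9 were higher, among them Gnal (0.98 ± 0.07) and Rgs2 (0.91 ± 0.07), and 7 lower, led by Maob (-2.34 ± 0.23), Rgs9 (-0.76 ± 0.19) and Rgs4 (-0.74 ± 0.06). In L2/3-Rorb 8 were higher, among them Maob (1.81 ± 0.09) and Rgs4 (1.42 ± 0.04), and 3 lower: Rgs9 (-1.89 ± 0.16), Adcy9 (-1.04 ± 0.10) and Ncs1 (-0.72 ± 0.04). Between excitatory neurons and inhibitory cells 13 of 48 tested were higher in excitatory neurons (median of the 48 at 0.21, beside 0.009 for all genes, with 39.6% of the list and 40.4% of all genes called), among them Maob (4.23 ± 0.15) and Arpp21 (3.48 ± 0.04), and 6 lower, led by Th (1 UMI in excitatory neurons and 51 in inhibitory cells), Adcy8 (-1.02 ± 0.09) and Gnal (-0.93 ± 0.04).

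The genes whose level was most like that of each member over the 21 sums of 7 subtypes and 3 libraries were found among 10497 genes by Pearson's r, as a description. For Drd1 these were Zwint (r = 0.91), Nptx1 (0.90) and Gng2 (0.90), and for Drd2 Tenm3 (0.93), mt-Co2 (0.92) and Clstn2 (0.91). For Drd5 they were Nhlrc1 (0.93), Wasl (0.92) and Chrna4 (0.91), and for Ppp1r1b Unc50 (0.96), Ndufs3 (0.95) and Sdhb (0.94). Sums of 1 subtype resemble each other and share depth, so these values rest on 7 subtypes rather than on 21 independent points. Among the members, r was 0.56 between Drd1 and Drd5, 0.13 between Drd1 and Drd2, 0.04 between Drd1 and Ppp1r1b and -0.39 between Drd2 and Ppp1r1b.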

How the data were processed

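The labels describe Chromium 3′ v3 single-cell libraries of vmPFC tissue, and the matrix headers name Cell Ranger 3.0.2. The submitters' processing notes name the mm10 build and Seurat 3.1.4. The authors deposited raw UMI counts per cell barcode, with no normalization, and a table of subtype labels for the excitatory neurons they kept. The deposited counts were used as they are, with the viral feature left out of library sizes. The 3 unsorted libraries held 7243 to 8040 cell barcodes and 83065993 to 87841541 UMIs, and the sorted one 2075 and 54749198. Pairs of libraries shared 5 to 30 cell barcode sequences.

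Limits for cells outside the authors' table were those of the study (500 to 8000 genes detected, 1000 to 60000 UMIs in total, mitochondrial share below 20%), and no doublet caller was run. Non-neuronal gates needed 4 or more UMIs of their markers, at most 1 of Gad1 and Gad2 and at most 3 of Slc17a7. Sst, Pvalb and Vip gates needed 4 or more UMIs of that gene and fewer of the others, and Lhx6 and Adarb2 gates at least 1 UMI of one and 0 of the other. Sums of UMIs for each group of cells in each library were fitted with edgeR 4.0.16 (TMM factors, filterByExpr, quasi-likelihood F test, library as block), with DESeq2 1.42.0 as an alternative. The fit was tested on simulated data. Intervals are exact at 95%, and the floor of a count of 0 is 3 counts. The members, the gene lists and the tests were chosen with earlier results of these data known, and the tests of differences between subtypes were added after the data were seen. Named genes were the 5 members and, of the list of 52, up to 3 called genes in each direction with the largest absolute log2 fold change. Some genes of that list are not reported here.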

Additional observations from a re-analysis of the deposited data

Results flagged for a closer look

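In 3 cases, the effect of the same contrast, barcode-high against barcode-zero neurons, differed between subtypes and passed a test of the difference itself (edgeR, 1 fit for each pair of subtypes, library within subtype as a block, adjusted over all genes tested). Drd1 was lower with the barcode in L5-S100b than in L6-Syt6 by -0.93 on the log2 scale and than in L6-Npy by -0.81. It was lower in barcode-high neurons in 4 of 4 libraries of L5-S100b, higher in 4 of 4 of L6-Syt6 by a difference that was not called, and higher in 2 of 4 of L6-Npy. Drd2 was lower with the barcode in L5-S100b than in L6-Npy by -1.65, from 56 UMIs in barcode-high and 25 in barcode-zero L5-S100b neurons and from 195 and 79 in L6-Npy. The Drd2 difference between L5-S100b and L6-Syt6 (-2.84, edgeR adjusted p = 0.0811) did not pass. Both fits were added after the values of each subtype had been seen.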

How the results depend on the processing

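Of the counts of members called under an alternative, 111 stayed close to the main one and 9 moved. With the other 6 subtypes summed per library, an alternative added after the data were seen, 5 members were called in L2/3-Calb1, where Drd4 then passed the filter and was tested, 4 in L2/3-Rorb and 4 in L5-Bcl6. The same alternative reversed Ppp1r1b in L5-Bcl6 (-1.41), Drd1 in L5-Htr2c (-0.53) and L5-S100b (-0.52) and Drd5 in L5-S100b (-0.54). It weights the other subtypes by their UMIs, which gives L6-Syt6 most of the weight. DESeq2 called 2 members in L2/3-Rorb. For barcode-high against barcode-zero L5-S100b neurons, 1 member was called in place of 3 with DESeq2, without the library as a replicate block and after thinning to 10000 UMIs. DESeq2 gave no adjusted p for Drd2 there, and after thinning Drd2 and Drd5 were not tested. Leaving out each unsorted replicate in turn gave 1 to 2 members called in that comparison, 1 to 2 in L2/3-Rorb, 2 to 3 in L5-Bcl6 and L5-Htr2c and 3 to 4 in L6-Npy. Counts of all genes called moved more. In L6-Syt6 218 genes were called by barcode, 75 without the block, 27 at 1 or more barcode UMIs and 78, 28 and 77 without unsorted replicate 1, 2 and 3. In L5-S100b 310 were called, 142 by DESeq2, 56 without the block, 202 at 1 or more barcode UMIs, 184 after thinning and 178 without unsorted replicate 2. In L6-Npy 83 were called, 11 by DESeq2, 0 without the block (406 at an unadjusted p under 0.05), 31 at 1 or more barcode UMIs, 50 after thinning and 45 without unsorted replicate 3. In L2/3-Rorb 14 were called, 0 by DESeq2 (132 at an unadjusted p under 0.05) and 0 by edgeR without the block (285), 28 without the filter, 6 at 1 or more barcode UMIs, 3 after thinning and 2 and 33 without unsorted replicate 1 and 2. Summing the other subtypes called 3689 genes in place of 2383 in L2/3-Rorb and 3630 in place of 2185 in L5-S100b. The sorted library could not be paired with an unsorted one because it pools other mice, so that the replicate number the groups share marks no shared animal. Depth limits Drd4 in excitatory neurons (15 UMIs), Drd5 in barcode-zero L5-S100b neurons (9 UMIs) and shares in non-neuronal cells.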

Other observations

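Th, the rate-limiting enzyme of dopamine synthesis, was at 5.98 ± 2.18 CPM (SD, n = 3 libraries) in Lhx6 cells from 46 UMIs, at 0 UMIs in Adarb2 cells, and at 1 UMI in all unsorted excitatory neurons. Ddc, the next enzyme, was at 0.775 ± 0.690 CPM in inhibitory cells from 15 UMIs and at 0.0575 ± 0.0280 in excitatory neurons. The dopamine transporter gene Slc6a3 had 9 UMIs in excitatory neurons, all in L6-Syt6, and 1 in inhibitory cells.

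Of the enzymes that break dopamine down, Maoa was at 26.5 ± 0.396 CPM in excitatory neurons and 43.2 ± 2.35 in inhibitory cells. Maob was at 26.2 ± 0.919 CPM in excitatory neurons and 1.49 ± 0.306 in inhibitory cells, and among the subtypes it ranged from 4.63 ± 1.97 in L2/3-Calb1 to 53.4 ± 5.79 in L2/3-Rorb.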
